A study of Mus musculus with 8 samples.

Results

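The expression of 40 developmental transcription factor genes outside the HOX clusters was described in prospermatogonia of the mouse, the germ cells that the testis holds before birth. The genes belong to the PAX, GATA, FOXA, SOX, T-box, LIM, DLX, MSX, IRX and related families, and they were chosen by name as lineage regulators known for bivalent, Polycomb-bound promoters in stem and germ cells. Their symbols were looked up in GENCODE M21 by Ensembl identifier, and all 40 were found among the 55401 genes of the deposited count table. RNA sequencing covered 4 libraries labelled KO (genotype Tet1-/-, KO 1 to KO 4) and 4 labelled WT (genotype Tet1+/+, WT 1 to WT 4), all from embryonic day E17.5 and all given as batch 1. No drug or other treatment is named in the labels. The sources used here give neither the kind of Tet1 allele nor the way the germ cells were isolated. The library names in the labels all differ, and those of KO 1 and WT 1 share a number whose meaning is not given. Nothing in the labels says outright that the libraries of a group came from separate animals, so p-values measure the spread between these libraries.

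These proteins bind DNA and set the identity of organs and tissues during embryogenesis. In pluripotent cells and in germ cells their CpG-rich promoters carry a repressive mark placed by Polycomb proteins, H3K27me3, together with an activating mark, H3K4me3. The genes are then held at low transcript levels without being packed away for good, a state called bivalent. TET1 oxidises methylated cytosine, binds CpG-rich DNA through its CXXC domain and is found at many bivalent promoters in embryonic stem cells. The title of the series is about a role of TET1 without catalysis in the chromatin on which male germ cells place new DNA methylation. Setting the libraries labelled KO against those labelled WT asks here whether transcripts of genes with such promoters differed.

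Promoter windows from RefSeq (GRCm38.p6, the assembly behind mm10), running from 250 bases before the start to 50 after it, were found for 28 of the 40 genes. Where a gene had several starts, the window with the most CpG dinucleotides was taken, for these and for all other genes. The 28 windows held a median of 24 CpG (range 9 to 40), against 8 over 27025 genes. Of the 28, 85.7% had 15 CpG or more, and 37.1% of all genes did. Among the genes that were lower in the libraries labelled KO, 16 had a window, with a median of 24.5 CpG, and the 10 genes with a window that did not pass or were not tested had a median of 21.5. The windows of Otx2, the riser with the higher level, and of Hand2 and Gata3, which had the largest falls, are printed 5′ to 3′ with each CpG in capitals, because CpG density is what these promoters are known for. They lie at chr14:48665060-48665359 on the minus strand (Otx2, 1 of 4 starts), chr8:57320733-57321032 on the plus strand (Hand2) and chr2:9878551-9878850 on the minus strand (Gata3).
Otx2: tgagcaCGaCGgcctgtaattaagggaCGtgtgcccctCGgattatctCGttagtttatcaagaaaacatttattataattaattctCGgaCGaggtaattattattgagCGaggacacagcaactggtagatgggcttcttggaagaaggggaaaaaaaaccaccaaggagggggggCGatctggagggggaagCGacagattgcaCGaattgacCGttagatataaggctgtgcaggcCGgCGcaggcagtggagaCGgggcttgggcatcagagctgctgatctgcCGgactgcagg
Hand2: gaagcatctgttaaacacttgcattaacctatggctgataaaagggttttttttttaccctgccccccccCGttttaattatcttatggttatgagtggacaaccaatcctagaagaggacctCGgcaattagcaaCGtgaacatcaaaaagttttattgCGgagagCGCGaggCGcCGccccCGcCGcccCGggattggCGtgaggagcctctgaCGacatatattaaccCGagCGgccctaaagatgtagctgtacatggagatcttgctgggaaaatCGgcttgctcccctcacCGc
Gata3: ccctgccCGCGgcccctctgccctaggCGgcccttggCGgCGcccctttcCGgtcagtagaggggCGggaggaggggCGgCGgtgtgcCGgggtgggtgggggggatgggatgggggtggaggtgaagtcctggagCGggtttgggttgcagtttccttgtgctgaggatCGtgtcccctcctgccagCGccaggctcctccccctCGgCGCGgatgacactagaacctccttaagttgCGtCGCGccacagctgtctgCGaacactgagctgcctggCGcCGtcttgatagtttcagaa
The Otx2 window had 16 CpG and 51.0% G and C, the Hand2 window 17 CpG and 50.3%, and the Gata3 window 22 CpG and 67.3%.

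**Figure D1:**
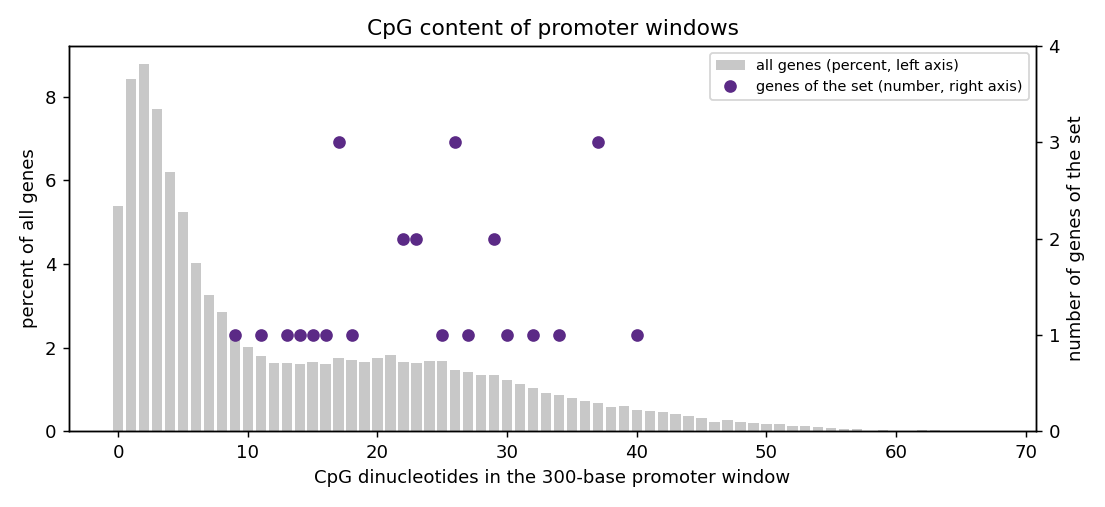
Number of CpG dinucleotides in the 300-base promoter window (x axis), as the percent of all 27025 genes (grey bars, left axis) and as the number of the 28 genes of the set with a window (points, right axis). The points run from 9 to 40 CpG, with a median of 24 against 8 for all genes.

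Libraries labelled KO held 13820764 to 19947912 counts and those labelled WT 14732396 to 20115250. Levels are given as CPM, the count scaled to library size with TMM factors. A count of 0 allows up to 3 counts, or 0.149 to 0.217 CPM before the TMM factors are applied. Tet1 itself went against the labels, with 129, 145, 75.8 and 147 CPM in KO 1 to KO 4, against 30.3, 30.2, 32.8 and 34.2 CPM in WT 1 to WT 4, a log2 difference of 1.97 (SE 0.178, edgeR adjusted p = 3.03e-06). A count over the whole gene does not show which exons were read. Every direction below is that of the libraries as labelled. Germ cell markers summed to between 2754 and 3322 CPM in the libraries labelled KO and between 3301 and 3975 CPM in those labelled WT, with 5 of 14 higher and 6 lower. A pair of libraries stood apart. KO 4 had 1819 CPM of Leydig cell markers (8 genes), where the other 7 libraries had 17.1 to 39.2 CPM, and WT 2 had the highest level among the libraries labelled WT for 34 of the 40 genes described here. How often WT 2 was the highest over all genes was not counted, so this cannot be called particular to the set. WT 2 also had the most genes with a count, 41470. The counts of the set, and the values of some genes that rest on KO 4 or WT 2, are given with and without them. For Six2, Lhx5, Tbx5 and Emx2 no value without WT 2 is given, and for Gata2 none without KO 4.

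The set leaned lower in the libraries labelled KO. Of the 40 genes, 36 had enough counts to be tested. Of these, 21 were lower, 2 were higher and 13 did not pass (edgeR's quasi-likelihood test, Benjamini-Hochberg adjusted p under 0.05). Over all 24005 genes tested, 28.2% were lower and 25.3% higher, 53.5% in all, and over protein-coding genes alone, which these are, 29.8% were lower and 31% higher. The median log2 difference was -1.06 over the 36 genes and -0.05 over all genes tested. With upper-quartile scaling 37.0% of all genes were lower and 16.8% higher, and 24 of the 36 were lower and 1 higher. With scaling on ribosomal protein genes the shares were 31.7% and 16.7%, and the set had 22 lower and 2 higher. With cyclic loess scaling 24.5% of all genes were lower and 25.2% higher, and the set had 15 lower and 3 higher with a median of -0.65.

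Fewer genes of the set were called lower without the libraries that stood apart. Without WT 2 there were 18 lower and 2 higher, with a median of -0.83, against 25.1% and 23.8% of all genes. Without KO 4 there were 18 lower and 2 higher, with a median of -1.07, against 24.7% and 22.5%. Without both there were 15 lower and 2 higher, with a median of -0.79, against 23% and 21.9%. The genes that lost their call without both were Pax3, Foxa2, Sox1, Dlx1, Dlx2 and En2.

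How often a gene was lower differed with its level. Among all genes with a mean under 2 CPM, 33.5% were lower and 5.62% higher, and of the 13 tested genes of the set at that level 7 were lower and 1 higher. At 2 CPM or more 26.1% of all genes were lower and 33.1% higher, and of the 23 genes of the set 14 were lower and 1 higher. A filter on low counts can keep a gene through the group where it is high. Without that filter all 40 genes were tested, with 21 lower and 2 higher, against 15.3% and 12.6% of 49140 genes. Of these 21, 20 were also lower with the filter, and 1 came from the 4 genes left untested there, while Dlx2 lost its call. The 49140 genes are all those with any count, so these shares include many genes with too few counts to pass. The 4 libraries labelled KO did not overlap the 4 labelled WT for 20 of the 36 genes, 19 of them lower, where 48.4% of all genes did not overlap and 25.1% did so with lower values in the libraries labelled KO.

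**Figure D2:**
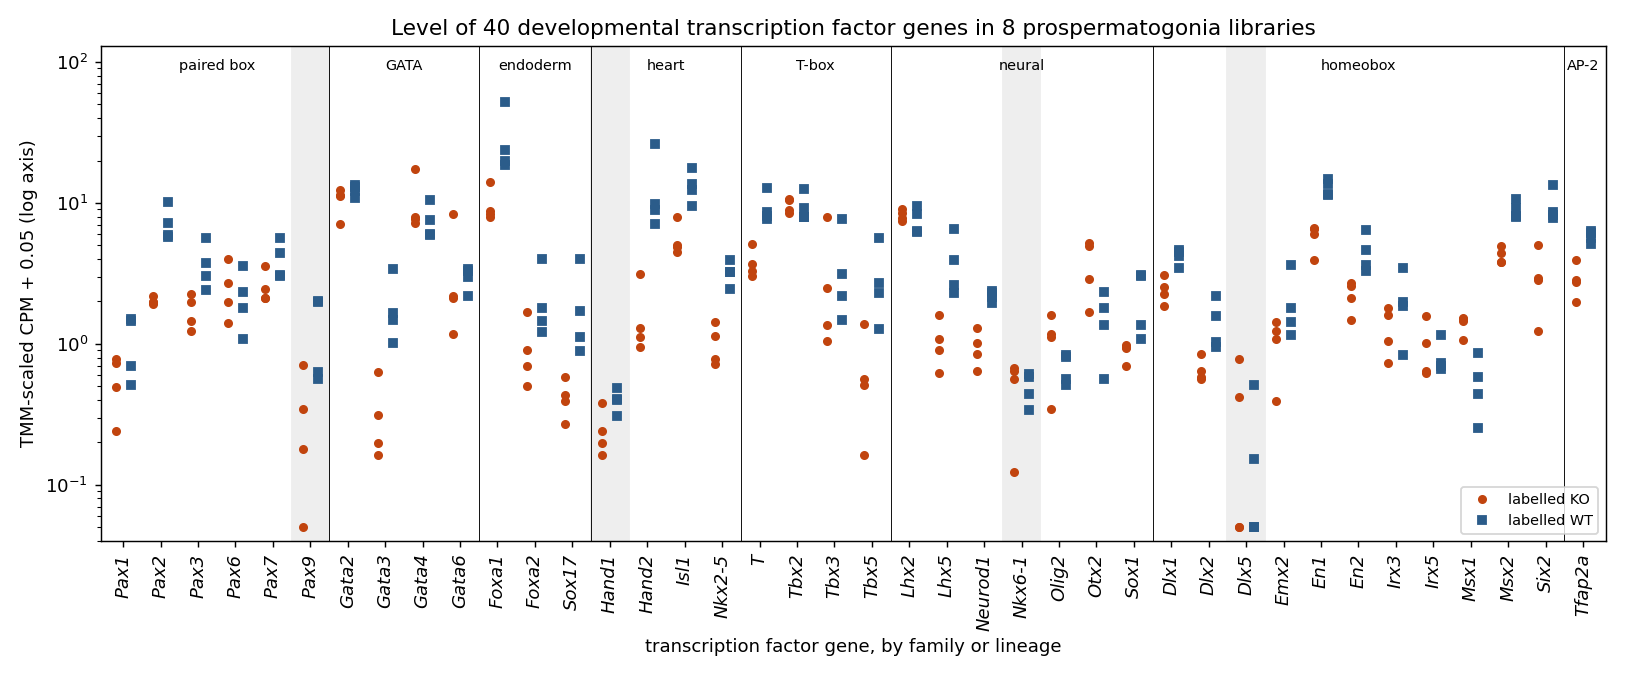
TMM-scaled CPM plus 0.05 on a log axis for each of the 40 genes, arranged by family or lineage along the x axis, with the 4 libraries labelled KO as circles left of the 4 labelled WT as squares, and the 4 untested genes shaded. Most pairs of groups sit between about 0.1 and 30 CPM, with the squares above the circles for Hand2, Foxa1, En1 and most others, and the circles above the squares for Msx1.

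Summed over the 40 genes, the level was 96.3 to 121 CPM in the libraries labelled KO and 158 to 297 CPM in those labelled WT. The highest of these sums was that of WT 2. Markers of nerve and muscle moved the same way, with 8 of 11 tested lower and 1 higher and a sum of 48.7 to 74.5 CPM in the libraries labelled KO against 95.1 to 194 CPM in those labelled WT. The largest part of that sum was Myh3, an embryonic myosin gene, with 22.0, 17.47, 32.6 and 18.2 CPM in KO 1 to KO 4, against 67.9, 137, 75.4 and 45.8 CPM in WT 1 to WT 4. The defining muscle regulator Myod1 was at or under 0.615 CPM in every library, and Myog had 0.795, 1.70, 1.33 and 0.900 CPM in KO 1 to KO 4, against 3.53, 7.96, 3.94 and 1.68 CPM in WT 1 to WT 4. Endothelial markers summed to 73.2 to 84.6 CPM in the libraries labelled KO and 86.7 to 101 CPM in those labelled WT. Of 8 tested, 6 were lower and 2 higher, Pecam1 (1.001) and Cldn5 (2.74). Pecam1 was the largest part of the sum in each library labelled KO. It had 21.3 to 36.3 CPM there, against 13.1 to 16.7 CPM in the libraries labelled WT. Its rise offset part of the falls of the other markers in the sum, and a sum without Pecam1 was not taken. The part of these cell types in the falls described here was not tested. In bulk samples fewer cells of a type and less RNA per cell cannot be told apart.

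The paired box genes encode regulators of kidney, eye, muscle and neural crest. Of 6 genes, 2 were lower, 3 did not pass and Pax9 was not tested, where 29.8% of protein-coding genes were lower. Pax2, which acts in kidney, ear and midbrain, had 2.12, 1.87, 1.92 and 1.93 CPM in KO 1 to KO 4, against 5.69, 10.1, 5.89 and 7.12 CPM in WT 1 to WT 4. The groups were well apart, and the log2 difference of -1.87 (SE 0.240, edgeR adjusted p = 3.88e-05) held in every alternative run. Pax3, a gene of neural crest and muscle precursors, had 1.92, 1.19, 2.21 and 1.41 CPM in KO 1 to KO 4, against 2.36, 5.58, 3.70 and 2.98 CPM in WT 1 to WT 4. Its groups did not overlap, KO 3 and WT 1 being close, and the log2 difference was -1.12 (SE 0.322, edgeR adjusted p = 0.0103). Without both KO 4 and WT 2 it was -0.76 (edgeR adjusted p = 0.0806), and the call was also lost under cyclic loess scaling. Pax7, the close relative that marks muscle stem cells, had 2.05, 2.38, 3.54 and 2.06 CPM in KO 1 to KO 4, against 3.02, 5.58, 4.33 and 2.98 CPM in WT 1 to WT 4, with a log2 difference of -0.67 (SE 0.286, edgeR adjusted p = 0.0632) and overlapping groups. Pax7 did pass with upper-quartile scaling (-0.90, edgeR adjusted p = 0.0212). It also passed as lower with ribosomal protein scaling, with coding genes only, without KO 3, without WT 4 and with halved counts. Pax6, the eye and forebrain regulator, had 3.98, 1.36, 1.92 and 2.63 CPM in KO 1 to KO 4, against 1.74, 3.54, 2.29 and 1.04 CPM in WT 1 to WT 4. KO 1 was the highest library, the groups overlapped, and the log2 difference was 0.19 (SE 0.400, edgeR adjusted p = 0.704). Pax1, a gene of the sclerotome, was near the floor, with counts of 11, 12, 6 and 3 in KO 1 to KO 4 and 9, 24, 30 and 10 in WT 1 to WT 4 and a log2 difference of -0.94 (SE 0.507, edgeR adjusted p = 0.133). Pax9 had counts of 10, 0, 4 and 2 in KO 1 to KO 4, against 38, 34, 12 and 8 in WT 1 to WT 4, too few for the test.

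The GATA genes held the second largest fall of the set and 3 genes that did not pass. Gata3, which acts in T cells and trophoblast, had 0.265, 0.113, 0.148 and 0.578 CPM in KO 1 to KO 4, against 1.43, 3.37, 1.61 and 0.971 CPM in WT 1 to WT 4. The counts behind these levels were 4, 2, 2 and 9 in KO 1 to KO 4 and 28, 58, 33 and 15 in WT 1 to WT 4, so that 3 of the libraries labelled KO lie near the floor of 3 counts. The groups did not overlap and the log2 difference was -2.71 (SE 0.550, edgeR adjusted p = 0.00114). It was -3.33 without KO 4. Gata2, a regulator of blood stem cells and endothelium, had 11.1, 11.3, 12.4 and 7.00 CPM in KO 1 to KO 4, against 10.9, 13.4, 12.9 and 12.2 CPM in WT 1 to WT 4. It was among the more abundant genes of the set in both groups, and its log2 difference was -0.24 (SE 0.184, edgeR adjusted p = 0.287). Gata2 passed as lower only with upper-quartile scaling (edgeR adjusted p = 0.0499985).

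Gata4 and Gata6, which direct heart and gut formation and are also used by somatic cells of the gonad, were highest in KO 4 and did not pass. Gata4 had 7.95, 7.15, 7.60 and 17.4 CPM in KO 1 to KO 4, against 5.84, 10.5, 7.50 and 5.95 CPM in WT 1 to WT 4. KO 4 lay far above the other 3 libraries of its group, which sat inside the range of those labelled WT. The log2 difference was 0.43 (SE 0.295, edgeR adjusted p = 0.236) with KO 4 and 0.05 without it (edgeR adjusted p = 0.876). Gata6 had 2.12, 1.13, 2.07 and 8.35 CPM in KO 1 to KO 4, against 2.92, 3.25, 3.36 and 2.14 CPM in WT 1 to WT 4. Here too KO 4 was the highest, and the other 3 libraries labelled KO were below the lowest of those labelled WT. The log2 difference of 0.22 (SE 0.485, edgeR adjusted p = 0.717) became -0.70 without KO 4 (edgeR adjusted p = 0.0898). With the level of somatic markers as a covariate Gata4 passed as higher (0.53, edgeR adjusted p = 0.0175). The enzyme gene Cyp17a1, which defines steroid-producing Leydig cells, had 4.70, 2.84, 1.55 and 862 CPM in KO 1 to KO 4, against 1.02, 6.16, 0.292 and 1.68 CPM in WT 1 to WT 4. Of 7 tested Leydig markers, 5 were higher in the libraries labelled KO and 0 lower (edgeR, adjusted p under 0.05), but without KO 4 no call was left, 0 higher and 0 lower. The Leydig sums of KO 1 to KO 3 were 17.1 to 25.4 CPM, against 19.4 to 39.2 CPM in WT 1 to WT 4. The part of such cells in the values of Gata4 and Gata6 was not tested.

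**Figure D3:**
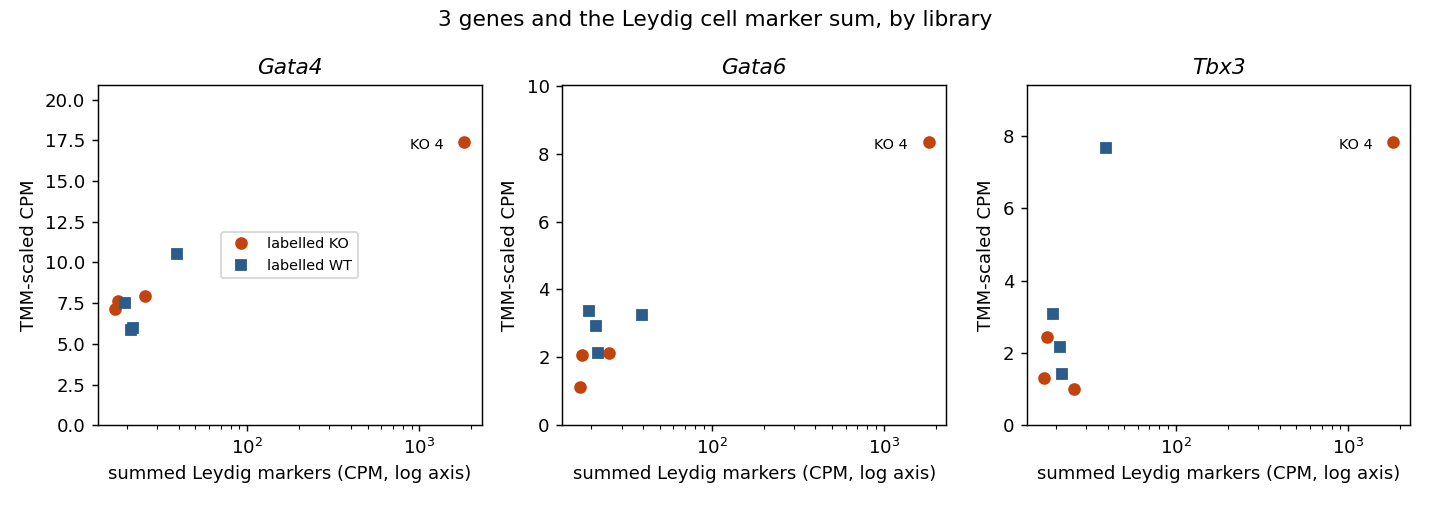
TMM-scaled CPM of Gata4, Gata6 and Tbx3 (y axis of each panel) against the sum of 8 Leydig cell markers in CPM (x axis, log scale), for the 4 libraries labelled KO (circles) and the 4 labelled WT (squares). KO 4, at 1819 CPM of markers, has the highest value of each gene, and WT 2 is close to it for Tbx3.

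The 3 genes grouped here as endoderm regulators fell, Foxa2 less firmly than the others, where 29.8% of protein-coding genes were lower. Gata4 (0.43) and Gata6 (0.22), which also act in gut formation, are placed with the GATA genes and did not pass. Foxa1, a factor that opens chromatin in gut, liver and prostate, had 7.88, 8.28, 14.1 and 8.74 CPM in KO 1 to KO 4, against 18.5, 51.8, 23.8 and 19.9 CPM in WT 1 to WT 4. It was the most abundant gene of the set in the libraries labelled WT, WT 2 lay far above the other 3, and the groups did not overlap. The log2 difference was -1.55 (SE 0.309, edgeR adjusted p = 0.00101), and -1.09 without WT 2 (edgeR adjusted p = 0.000757). Sox17, which specifies endoderm and endothelium, had 0.530, 0.340, 0.221 and 0.386 CPM in KO 1 to KO 4, against 1.08, 3.95, 1.66 and 0.841 CPM in WT 1 to WT 4. Its counts were 8, 6, 3 and 6 in KO 1 to KO 4, so that KO 3 lies at the floor of 3 counts. In WT 1 to WT 4 they were 21, 68, 34 and 13. The groups did not overlap, with a log2 difference of -2.32 (SE 0.536, edgeR adjusted p = 0.00275) that was -1.67 without WT 2. Foxa2, the regulator of the node and floor plate, had 0.861, 0.454, 1.62 and 0.643 CPM in KO 1 to KO 4, against 1.74, 3.95, 1.41 and 1.16 CPM in WT 1 to WT 4. KO 3 lay inside the range of the libraries labelled WT, and the log2 difference of -1.22 (SE 0.477, edgeR adjusted p = 0.0444) only just passed. Foxa2 lost its call without KO 1, KO 2, KO 4, WT 1 or WT 2, with differences of -0.71 to -1.29 (edgeR adjusted p = 0.0634 to 0.202). It also lost it with the somatic marker covariate (-1.04, edgeR adjusted p = 0.107), with the replicate block (-1.15, 0.0959) and under cyclic loess scaling (-0.64, 0.225).

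The genes grouped here as heart genes fell where they could be tested, 3 of 3, where 29.8% of protein-coding genes were lower. Other genes of the set with roles in the heart are placed in other groups. Of these, Tbx5 was lower, and Gata4 (0.43), Gata6 (0.22) and Tbx2 (0.03) did not pass. Hand2, a regulator of the ventricles and of limb buds, had 1.06, 1.25, 3.10 and 0.900 CPM in KO 1 to KO 4, against 8.91, 26.0, 9.78 and 7.05 CPM in WT 1 to WT 4. Every KO library was below every WT library, and the log2 difference of -3.05 (SE 0.466, edgeR adjusted p = 0.000143) was the largest of the set. Without WT 2 it was -2.46. Isl1, which marks the progenitors of the second heart field and motor neurons, had 4.84, 4.99, 7.90 and 4.43 CPM in KO 1 to KO 4, against 12.4, 17.8, 13.6 and 9.51 CPM in WT 1 to WT 4. KO 3 was the highest of its group and still below WT 4, the lowest of the other, and the log2 difference was -1.27 (SE 0.233, edgeR adjusted p = 0.000563). Nkx2-5, the homeobox gene of the early heart, had 1.39, 0.737, 0.664 and 1.09 CPM in KO 1 to KO 4, against 3.18, 3.89, 2.39 and 3.17 CPM in WT 1 to WT 4, with no overlap and a log2 difference of -1.69 (SE 0.317, edgeR adjusted p = 0.000648). These 3 calls held in every alternative run. Hand1 was not tested, with counts of 5, 2, 2 and 3 in KO 1 to KO 4 and 7, 6, 9 and 4 in WT 1 to WT 4.

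T-box genes were divided, with 2 lower and 2 that did not pass, where 29.8% of protein-coding genes were lower. T (brachyury), the mesoderm and notochord factor that early germ cells also use, had 2.98, 3.63, 5.09 and 3.21 CPM in KO 1 to KO 4, against 8.04, 12.7, 8.57 and 7.70 CPM in WT 1 to WT 4. The groups did not overlap and the log2 difference was -1.31 (SE 0.235, edgeR adjusted p = 0.00047). Tbx5, of heart and forelimb, had 0.464, 0.113, 1.33 and 0.514 CPM in KO 1 to KO 4, against 2.66, 5.58, 2.24 and 1.23 CPM in WT 1 to WT 4. Its counts were 7, 2, 18 and 8 in KO 1 to KO 4, so that KO 2 lies under the floor of 3 counts. In WT 1 to WT 4 they were 52, 96, 46 and 19. KO 3 was just above WT 4, so the groups overlapped, and the log2 difference was -2.31 (SE 0.581, edgeR adjusted p = 0.00469), or -2.99 without KO 3. Tbx2, a repressor active in heart valves and lung, had 10.5, 8.45, 8.93 and 10.6 CPM in KO 1 to KO 4, against 9.17, 12.6, 7.93 and 7.89 CPM in WT 1 to WT 4. The groups lay over each other, with a log2 difference of 0.03 (SE 0.188, edgeR adjusted p = 0.896). Tbx3, its close relative, had 0.994, 1.30, 2.44 and 7.84 CPM in KO 1 to KO 4, against 2.15, 7.67, 3.07 and 1.42 CPM in WT 1 to WT 4. KO 4 and WT 2, the libraries with the 2 highest Leydig marker sums, were far above the others. The log2 difference of -0.19 (SE 0.610, edgeR adjusted p = 0.812) was -1.16 without KO 4, 0.49 without WT 2 and -0.50 without both (edgeR adjusted p = 0.0889, 0.505 and 0.348).

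Neural regulators included a riser. Otx2, which patterns the anterior brain and is also made by epiblast cells, had 5.17, 4.88, 1.62 and 2.83 CPM in KO 1 to KO 4, against 1.74, 2.27, 1.31 and 0.518 CPM in WT 1 to WT 4. KO 1, KO 2 and KO 4 were above every library labelled WT, KO 3 lay inside their range, and the log2 difference was 1.31 (SE 0.429, edgeR adjusted p = 0.0206). Its edgeR adjusted p was 0.0603 without KO 1, 0.0515 without KO 2 and 0.0539 under upper-quartile scaling, and each of these ended the call. Lhx5, a LIM gene of hippocampus and spinal cord, had 0.861, 0.567, 1.55 and 1.03 CPM in KO 1 to KO 4, against 2.25, 6.45, 3.89 and 2.59 CPM in WT 1 to WT 4, without overlap and with a log2 difference of -1.93 (SE 0.401, edgeR adjusted p = 0.00132). Neurod1, which drives neuronal and endocrine differentiation, had 0.795, 1.25, 0.590 and 0.964 CPM in KO 1 to KO 4, against 1.90, 2.32, 2.09 and 2.26 CPM in WT 1 to WT 4. Its libraries labelled WT were close together and all above those labelled KO, with a log2 difference of -1.23 (SE 0.315, edgeR adjusted p = 0.00524). Under cyclic loess scaling that difference was -0.66 (edgeR adjusted p = 0.122). Sox1, an early marker of the neural plate, had 0.928, 0.908, 0.886 and 0.643 CPM in KO 1 to KO 4, against 1.02, 3.02, 1.31 and 2.98 CPM in WT 1 to WT 4. WT 2 and WT 4 were high, WT 1 and WT 3 only a little above the libraries labelled KO, and the log2 difference was -1.29 (SE 0.409, edgeR adjusted p = 0.0171). Without KO 4, WT 2 or WT 4 it was -1.15, -1.05 and -1.05 and did not pass (edgeR adjusted p = 0.0513 to 0.0571), and under cyclic loess scaling it was -0.70 (edgeR adjusted p = 0.169).

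The other neural genes did not pass. Lhx2, a gene of eye, forebrain and hair follicle, had 8.41, 7.37, 9.005 and 7.78 CPM in KO 1 to KO 4, against 6.25, 9.41, 8.28 and 6.21 CPM in WT 1 to WT 4. The groups overlapped, and the log2 difference was 0.11 (SE 0.188, edgeR adjusted p = 0.644). Olig2, the factor of motor neurons and oligodendrocytes, had 1.06, 1.13, 0.295 and 1.54 CPM in KO 1 to KO 4, against 0.461, 0.755, 0.779 and 0.518 CPM in WT 1 to WT 4, with overlapping groups and a log2 difference of 0.68 (SE 0.462, edgeR adjusted p = 0.228). Under cyclic loess scaling Olig2 passed as higher (1.503, edgeR adjusted p = 0.0219). Nkx6-1, of motor neurons and beta cells, was not tested, with counts of 9, 11, 1 and 8 in KO 1 to KO 4 and 11, 5, 11 and 6 in WT 1 to WT 4.

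Other homeobox genes gave 6 lower, 1 higher and 3 that did not pass, with Dlx5 untested, where 29.8% of protein-coding genes were lower and 31% higher. The MSX pair moved in opposite directions. Msx1, a gene of tooth, palate and limb, had 1.46, 1.02, 1.48 and 1.41 CPM in KO 1 to KO 4, against 0.205, 0.813, 0.535 and 0.388 CPM in WT 1 to WT 4. Each KO value exceeded each WT value, from counts of 22, 18, 20 and 22 in KO 1 to KO 4 against 4, 14, 11 and 6 in WT 1 to WT 4, and the log2 difference was 1.45 (SE 0.425, edgeR adjusted p = 0.0113). Msx2, its relative in skull and limb, had 3.78, 4.94, 3.76 and 4.37 CPM in KO 1 to KO 4, against 7.89, 10.7, 7.98 and 9.19 CPM in WT 1 to WT 4. Here the groups were apart the other way, with a log2 difference of -1.08 (SE 0.191, edgeR adjusted p = 0.000422). Both calls held in every alternative that tested them.

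The engrailed genes, which shape the midbrain and cerebellum, both fell. En1 had 3.91, 6.47, 5.98 and 6.62 CPM in KO 1 to KO 4, against 11.5, 14.8, 13.5 and 11.3 CPM in WT 1 to WT 4, a log2 difference of -1.15 (SE 0.195, edgeR adjusted p = 0.000311). En2 had 2.65, 1.42, 2.51 and 2.06 CPM in KO 1 to KO 4, against 4.56, 6.39, 3.60 and 3.24 CPM in WT 1 to WT 4, a log2 difference of -1.05 (SE 0.289, edgeR adjusted p = 0.00814). Neither overlapped between groups, and without both KO 4 and WT 2 the difference of En2 was -0.79 (edgeR adjusted p = 0.0531). Six2, which keeps nephron progenitors undifferentiated, had 2.78, 1.19, 5.02 and 2.89 CPM in KO 1 to KO 4, against 7.79, 13.4, 8.62 and 8.22 CPM in WT 1 to WT 4. The libraries labelled KO were spread from 1.19 to 5.02 CPM and still below those labelled WT, with a log2 difference of -1.69 (SE 0.339, edgeR adjusted p = 0.00104).

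Dlx1 and Dlx2, neighbours that act together in forebrain interneurons, were both lower. Dlx1 had 3.05, 2.50, 2.21 and 1.80 CPM in KO 1 to KO 4, against 4.56, 4.41, 4.19 and 3.43 CPM in WT 1 to WT 4, with a log2 difference of -0.79 (SE 0.239, edgeR adjusted p = 0.0132). Dlx2, at about a CPM, had 0.530, 0.794, 0.590 and 0.514 CPM in KO 1 to KO 4, against 1.54, 2.15, 0.974 and 0.906 CPM in WT 1 to WT 4, with a log2 difference of -1.18 (SE 0.397, edgeR adjusted p = 0.0231). The groups did not overlap for either gene, but Dlx2 lost its call without KO 1, KO 4, WT 1 or WT 2, with differences of -0.89 to -1.12 (edgeR adjusted p = 0.0609 to 0.0916). It also lost it with no filter on low counts (-1.12, edgeR adjusted p = 0.0555). Both genes lost their call under cyclic loess scaling (edgeR adjusted p = 0.107 for Dlx1 at -0.48 and 0.379 for Dlx2 at -0.43). Dlx5, a gene of bone and jaw, was listed with counts of 11, 0, 5 and 0 in KO 1 to KO 4 and 2, 8, 0 and 0 in WT 1 to WT 4.

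The Iroquois genes and Emx2 did not pass. Irx3, found in neural tube and in somatic cells of the gonad, had 0.994, 0.681, 1.55 and 1.73 CPM in KO 1 to KO 4, against 1.79, 3.43, 0.779 and 1.94 CPM in WT 1 to WT 4, with a log2 difference of -0.68 (SE 0.442, edgeR adjusted p = 0.213). Irx5 had a mean of 0.911 ± 0.447 CPM in the libraries labelled KO and 0.762 ± 0.230 CPM in those labelled WT (SD, n = 4 each), a log2 difference of 0.26 (SE 0.426, edgeR adjusted p = 0.631). Emx2, which is needed for cortex and for the urogenital tract, had 1.39, 0.340, 1.18 and 1.03 CPM in KO 1 to KO 4, against 1.38, 3.60, 1.75 and 1.10 CPM in WT 1 to WT 4. WT 2 was far above the rest and the other libraries overlapped, with a log2 difference of -1.002 (SE 0.466, edgeR adjusted p = 0.0855). Emx2 passed as lower only with upper-quartile scaling (edgeR adjusted p = 0.0438). Tfap2a, the AP-2 gene of neural crest and surface ectoderm, did fall. It had 2.72, 2.78, 3.91 and 1.93 CPM in KO 1 to KO 4, against 6.09, 6.27, 5.60 and 5.05 CPM in WT 1 to WT 4, with no overlap and a log2 difference of -1.03 (SE 0.236, edgeR adjusted p = 0.0027) that passed in every alternative run.

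**Figure D4:**
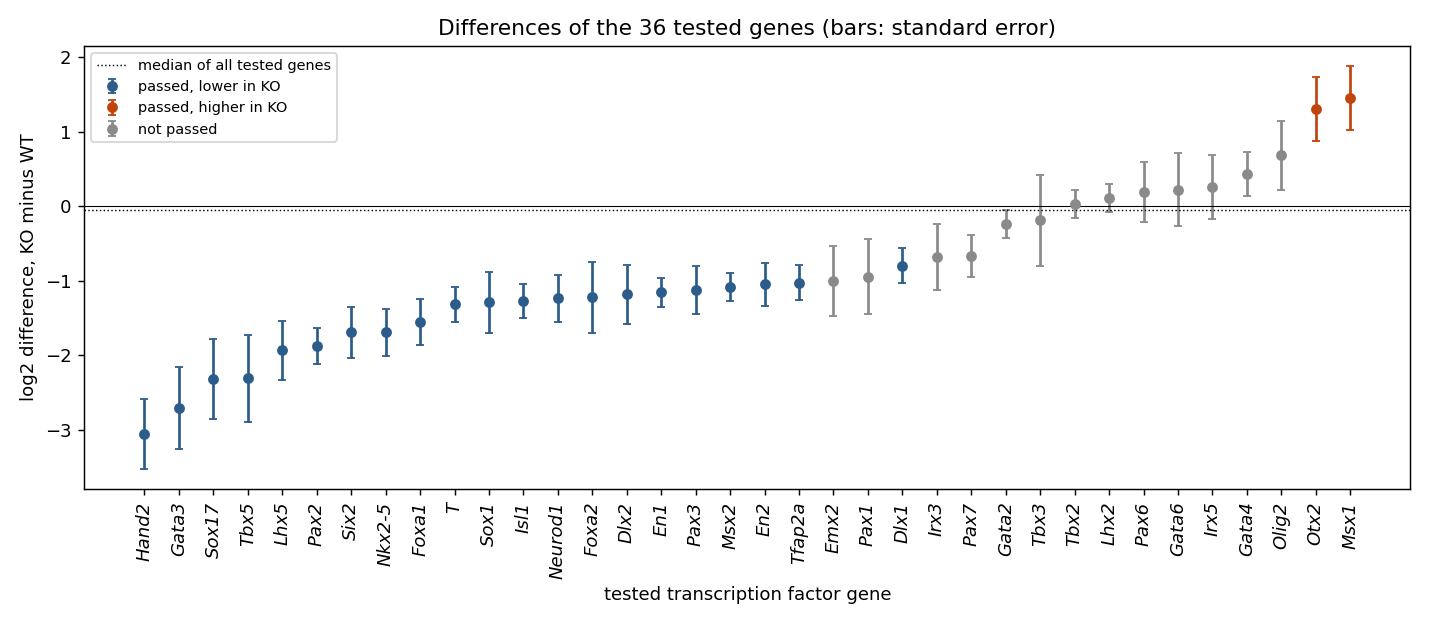
Log2 difference of KO minus WT for the 36 tested genes (y axis), in order of size along the x axis, with bars of 1 standard error, coloured by whether the gene passed, and a dotted line at the median of all tested genes (-0.05). Values run from -3.05 for Hand2 to 1.45 for Msx1, with 21 passing below 0 and 2 above.

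Levels were compared between genes per kilobase of annotated exon. On that scale the group means in the libraries labelled KO were highest for Foxa1 (2.93 CPM per kilobase), Tbx2 (2.65), Gata4 (2.57, with KO 4 included) and En1 (2.19). In those labelled WT they were highest for Foxa1 (8.56), Hand2 (5.51), En1 (4.87) and Six2 (4.49), all with WT 2 included. On these means Hand2 stood beside Foxa1 and En1 in the libraries labelled WT and at 0.671 CPM per kilobase in those labelled KO. Its place among the WT means rests on WT 2, which had 26.0 CPM of Hand2, where WT 1, WT 3 and WT 4 had 7.05 to 9.78 CPM. The highest means were 10.4 CPM in the libraries labelled KO (Gata2) and 28.5 CPM in those labelled WT (Foxa1). The median over the tested genes of the set was 2.92 CPM in all 8 libraries, against 6.40 CPM for all genes tested, and 10 of the 40 genes had a mean above that value.

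Genes on the opposite strand that overlap a gene of the set or start within 5 kb of it were also read, because the strand setting of the counting is not given and reads from overlapping exons on opposite strands cannot then be told apart. Such neighbours were in the table for 22 of the 40 genes, 28 in all, and 15 of them overlapped exons. Of the 7 that could be tested, 4 were lower and 0 higher in the libraries labelled KO (edgeR, adjusted p under 0.05), where 28.2% and 25.3% of all genes were. Dlx1as, which overlaps exons of Dlx1, was not tested and went the other way from Dlx1, with 1.13, 0.567, 1.18 and 0.578 CPM in KO 1 to KO 4, against 0.256, 0.465, 0.243 and 0.259 CPM in WT 1 to WT 4 and no overlap. Hand2os1, a noncoding RNA that overlaps Hand2, had 0.861, 0.227, 0.960 and 0.514 CPM in KO 1 to KO 4, against 2.46, 8.60, 2.58 and 1.36 CPM in WT 1 to WT 4, a log2 difference of -2.56 (SE 0.580, edgeR adjusted p = 0.00238). It fell as Hand2 did, and WT 2 was again the highest. Tbx3os1, which overlaps Tbx3, had 0.994, 0.511, 1.11 and 0.643 CPM in KO 1 to KO 4, against 3.18, 4.07, 1.75 and 1.75 CPM in WT 1 to WT 4. Its difference of -1.73 (SE 0.389, edgeR adjusted p = 0.00228) passed where that of Tbx3 did not, and it was not raised in KO 4. The transcripts 2610027K06Rik near Tbx2 and Crnde near Irx5 did not pass, with log2 differences of 0.05 (SE 0.236, edgeR adjusted p = 0.882) and -0.45 (SE 0.250, edgeR adjusted p = 0.148). The others that fell were Gm20395 within Pax2 (-2.96) and Gm47061 over Tfap2a (-1.40), named after their values were seen. Among the genes that passed, Sox17, Gata3, Lhx5, Otx2, Dlx1, Hand2 and Tfap2a have an exon-overlapping neighbour in the table.

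Relatives of these genes that are not in the set went both ways. Of 66 such family members, 49 were tested, with 21 lower, 11 higher and 17 not passing and a median log2 difference of -0.59. Over protein-coding genes 29.8% were lower and 31% higher. Those with the lowest p among the lower ones were Tbx19 (-3.51), Irx4 (-2.06), Lhx6 (-1.10), Pax5 (-1.61) and Dlx4 (-1.78). Among the higher ones they were Sox2 (4.49), the pluripotency factor, Six4 (2.76), Tfap2c (2.03), which is needed for germ cell specification, Lhx1 (2.51) and Neurog3 (2.94), which marks early spermatogonia. The edgeR adjusted p of these 10 was 0.000164 or lower.

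Several families held genes that passed in opposite directions. In the SOX group of Sox1, the fall of Sox1 stood beside rises of Sox2, with 51.5, 70.1, 33.9 and 53.0 CPM in KO 1 to KO 4, against 2.36, 3.31, 1.31 and 2.33 CPM in WT 1 to WT 4, and of Sox3 (1.77). Six2 fell while Six4 and Six5 (1.22) rose. Six4, a gene of muscle and sensory placodes, had 51.1, 105, 53.0 and 72.2 CPM in KO 1 to KO 4, against 8.60, 10.2, 9.64 and 13.1 CPM in WT 1 to WT 4. Isl1 fell and Isl2 rose (0.82), Lhx5 fell and its nearest relative Lhx1 rose, and Tfap2a fell while Tfap2c rose. Lhx1 had 15.2, 23.9, 9.74 and 23.7 CPM in KO 1 to KO 4, against 3.07, 4.82, 2.48 and 2.39 CPM in WT 1 to WT 4. By contrast Pax2 and both of its closest relatives, Pax5 and Pax8 (-0.93), were lower. Pax5, the B cell factor, had 7.88, 5.28, 10.3 and 6.55 CPM in KO 1 to KO 4, against 19.2, 35.0, 19.5 and 17.9 CPM in WT 1 to WT 4. The relatives named here beside the 10 above were chosen after their values were seen.

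**Figure D5:**
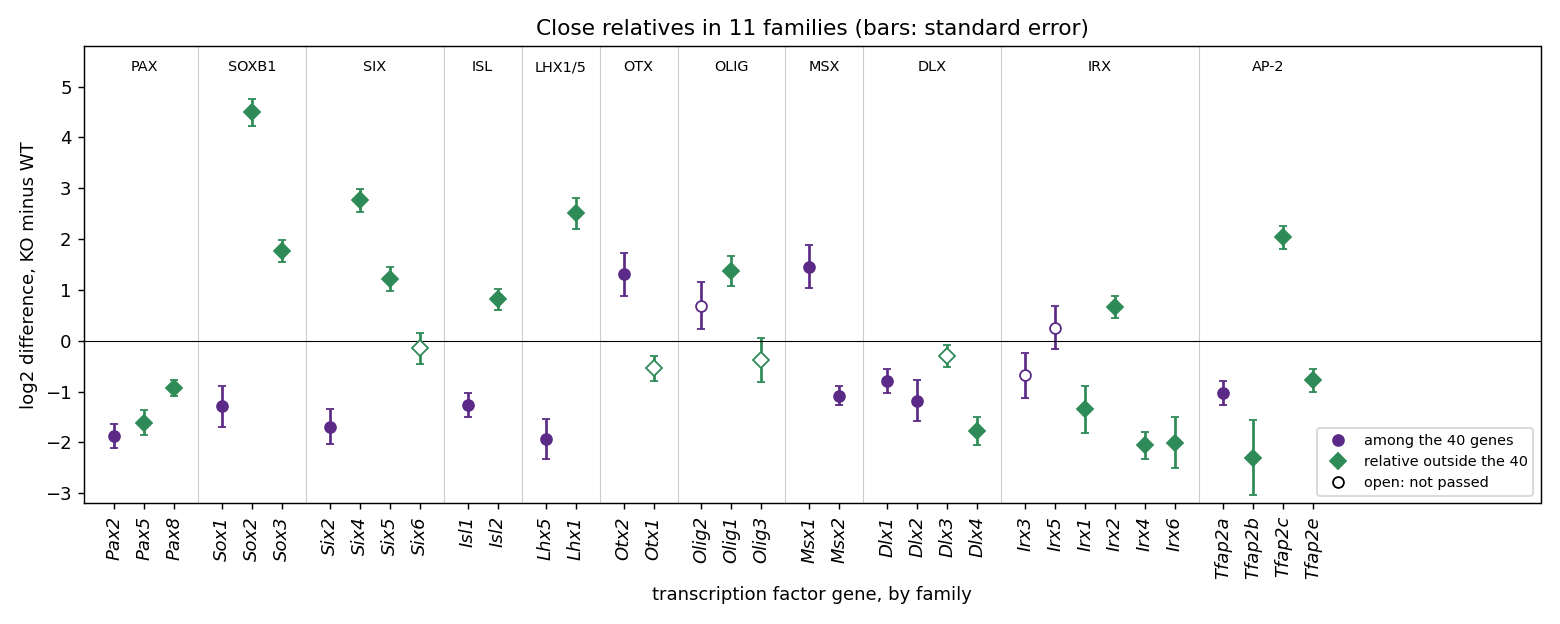
Log2 difference of KO minus WT (y axis, bars of 1 standard error) for genes of 11 families along the x axis, with genes of the set as circles, relatives outside it as diamonds and open symbols for genes that did not pass. Beside Six2, Isl1, Lhx5, Msx1 and Tfap2a, passing genes lie on both sides of 0, while Pax2, Pax5 and Pax8 all lie below it.

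The enzymes and subunits that write, read and erase the bivalent marks leaned higher in the libraries labelled KO, where the set leaned lower. Among these 28 genes, 19 rose, 4 fell and 5 missed the threshold, with a median log2 difference of 0.57. Among genes of 2 CPM or more in general, 33.1% were higher and 26.1% lower. Kdm6b, an H3K27 demethylase gene, had 205, 232, 193 and 192 CPM in KO 1 to KO 4, against 66.0, 68.7, 85.7 and 90.1 CPM in WT 1 to WT 4, a log2 difference of 1.40 (SE 0.123, edgeR adjusted p = 2.33e-06). The Polycomb accessory gene Mtf2 (0.95) and the H3K4 demethylase gene Kdm5c (0.90) had the next lowest p. The genes that fell were Kmt2b (-0.51), which places H3K4me3 at bivalent promoters, the PRC2 genes Ezh1 (-0.47) and Eed (-0.53), and Cxxc1 (-0.48), named after its value was seen. Kmt2b had 532, 618, 695 and 530 CPM in KO 1 to KO 4, against 770, 947, 844 and 829 CPM in WT 1 to WT 4. Ezh2, the main PRC2 methyltransferase gene, was higher at 113 ± 13.6 CPM in the libraries labelled KO and 54.5 ± 10.9 CPM in those labelled WT (SD, n = 4 each), and it too was named after its value was seen. With upper-quartile scaling 14 were higher and 5 lower.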

How the data were processed

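RNA was sequenced from 8 mouse prospermatogonia libraries, 4 labelled KO and 4 labelled WT. Per the labels' protocols, RNA was depleted of ribosomal RNA and made into libraries from 5 ng with a kit that carries molecular identifiers. The authors deposited raw counts per gene. Per the submitters' processing notes, Trim Galore, STAR, featureCounts 1.5.0, edgeR, DESeq2 and mm10 are named, with no role or order. Strand setting, annotation release and use of the identifiers were not stated there. Even numbers made up 52.3% to 58.0% of counts from 1 to 20, so counts may not be independent molecules, and floors cover counting error only.

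Of 55401 gene identifiers, 55141 matched GENCODE M21 and 260 did not. Counts were fitted with edgeR 4.0.16 in R 4.3.3, with filterByExpr, TMM scaling, a quasi-likelihood test of genotype over 24005 genes and Benjamini-Hochberg adjustment at 0.05. A log2 difference is that of KO minus WT. The script was also tested on simulated data.

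The genes of the set, the lists of relatives, enzymes and markers, and the rule for naming genes were chosen with earlier results of these data known. By that rule every gene of the set is accounted for, with values per library for those that average 1 CPM or more or that passed. Relatives were named by the 5 lowest p in each direction and enzymes by the 3 lowest. Values of some relatives are not reported here. Alternatives were DESeq2 1.42.0, RLE, upper-quartile, ribosomal protein and cyclic loess scaling, no filter on low counts, a stricter filter (1 CPM in 4 libraries), robust dispersion, replicate number as a block, somatic marker level as a covariate, coding genes only, and leaving out each library. Leaving out KO 4 with WT 2, halving the counts, and reading the Leydig and Sertoli markers without KO 4 or Dmrt1 were chosen after seeing the data.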

Additional observations from a re-analysis of the deposited data

Results flagged for a closer look

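Of 98 groups of 4 libraries examined (each gene of the set, Tet1 and each marker sum, in each label), 14 held a library whose gap to the next was above the 95% critical value of Dixon's test. That value gives about 1 in 20 only for normally spread values in independent groups. CPM was used without logs, and the tested genes varied together (median correlation of deviations from group means 0.41). The 14 are therefore a description and not a count against chance. KO 4 was high for summed Leydig markers (1819 CPM), summed Sertoli markers (230 CPM, next 163 CPM), Gata4 (17.4 CPM, next 7.95 CPM) and Gata6 (8.35 CPM, next 2.12 CPM), and low for Sox1 (0.643 CPM, next 0.886 CPM). WT 2 was high for Foxa1 (51.8 CPM, next 23.8 CPM), Hand2 (26.0 CPM, next 9.78 CPM), Six2 (13.4 CPM, next 8.62 CPM), Irx5 (1.10 CPM, next 0.682 CPM) and summed Leydig markers (39.2 CPM, next 21.8 CPM). KO 3 was high for Foxa1 (14.1 CPM, next 8.74 CPM), Isl1 (7.90 CPM, next 4.99 CPM) and Hand2 (3.10 CPM, next 1.25 CPM). KO 2 was low for Msx1 (1.02 CPM, next 1.41 CPM).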

How the results depend on the processing

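Of the 23 genes that passed, 15 kept their call in every alternative that tested them, and 8 lost it in at least 1 (Pax3, Foxa2, Sox1, Neurod1, Otx2, Dlx1, Dlx2 and En2). The number lower was 15 to 24 over the alternatives, 15 with cyclic loess and 18 to 23 when 1 library was left out. DESeq2 gave 21 lower and 2 higher. The number higher was 1 with upper-quartile scaling, the stricter filter and halved counts, 1 to 2 when 1 library was left out, and 3 with cyclic loess (Olig2 added) and with the somatic marker covariate (Gata4 added). The stricter filter tested 30 genes of the set and halved counts 28. Msx1 was not tested in either, so no higher call was lost there, while upper-quartile scaling ended that of Otx2. Over all genes 6083 were higher, but 4033 under upper-quartile scaling and 4002 under scaling on ribosomal protein genes. The median over all genes moved by -0.24 and -0.18 there, and higher genes were 31.2% and 34.5% of all calls, against 47.3%. The relatives had 21 lower, but 13 with cyclic loess. No gene that changed sign had passed. Gata6 (0.22) was -0.018 under upper-quartile scaling, -0.17 in the replicate block, -0.67 without both KO 4 and WT 2, and -0.70 to 0.56 when 1 library was left out. Tbx2 (0.03) was -0.21 under upper-quartile scaling, -0.14 under ribosomal protein scaling, -0.0082 with the stricter filter, -0.0085 with coding genes only, -0.043 with halved counts and -0.024 to 0.21 when 1 library was left out. Tbx3 (-0.19) was 0.15 with cyclic loess and -1.16 to 0.49 when 1 library was left out. Pax6 (0.19) was -0.044 under upper-quartile scaling and -0.11 to 0.53 when 1 library was left out. Lhx2 (0.11) was -0.12 under upper-quartile scaling and -0.066 under ribosomal protein scaling, and Irx5 (0.26) was -0.078 to 0.49 when 1 library was left out. The causes were not tested. No pairing by replicate number is stated in the labels. Deviations from the group means correlated over genes at 0.214 for KO 1 with WT 1 and -0.241 for KO 2 with WT 2. For KO 3 with WT 3 the value was -0.145, and for KO 4 with WT 4 it was -0.010. Deviations centred within a group offset each other, so these values cannot settle whether libraries were paired. With the replicate block 20 genes were lower and 2 higher, Foxa2 losing its call. Depth limits the 9 genes under 1 CPM most.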

Other observations

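Markers of the Sertoli cell, the somatic cell that surrounds the germ cells, were read beside the set because Gata4 is also used there. Of 14 markers, 12 could be tested, and in the libraries labelled KO 6 rose and 1 fell (edgeR, adjusted p under 0.05). The markers summed to 149 to 230 CPM in the libraries labelled KO and 86.2 to 96.3 CPM in those labelled WT. The largest part of that sum was Dmrt1, which germ cells also express, with 118, 108, 107 and 85.8 CPM in KO 1 to KO 4, against 36.5, 36.4, 43.0 and 37.0 CPM in WT 1 to WT 4. Without Dmrt1 the sums were 44.7, 41.4, 48.8 and 144 CPM in KO 1 to KO 4, against 49.7, 59.9, 53.1 and 51.1 CPM in WT 1 to WT 4, so that outside KO 4 they were lower than in every library labelled WT. Outside KO 4 the largest part of these sums was Clu. It had 17.0, 17.8, 21.8 and 52.5 CPM in KO 1 to KO 4. The libraries labelled WT had 31.3 to 34.3 CPM of Clu. Among the 6 markers that rose with KO 4 included were Wt1 (1.13), Aard (1.32) and Cst9 (1.76), and the 1 that fell was Dhh (-0.83). Without KO 4, 5 of the 12 tested markers were higher and 2 lower, so the sum and the single markers did not go the same way. Amh, a product of Sertoli cells alone in the fetal testis, had 3.98, 2.89, 3.25 and 5.01 CPM in KO 1 to KO 4, against 1.18, 2.32, 1.36 and 1.75 CPM in WT 1 to WT 4. Of 9 tested markers of mesonephric epithelium 2 rose and 4 fell. Epcam (0.45) and Lhx1 (2.51) were the 2 that rose, and the keratin gene Krt8 (0.004) did not pass. Krt19, a keratin gene named because its fall was the largest of that list, had 1.13, 2.21, 2.95 and 1.03 CPM in KO 1 to KO 4. It had 10.5, 13.5, 12.4 and 8.35 CPM in WT 1 to WT 4. Interstitial and peritubular markers summed to 177 to 219 CPM in the libraries labelled KO and 184 to 285 CPM in those labelled WT, and 2 of 13 tested rose and 4 fell. Markers of blood cells summed to 14.3 to 25.4 CPM in the libraries labelled KO and 22.6 to 29.8 CPM in those labelled WT, and 1 of 6 tested rose and 3 fell.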
